A study of Homo sapiens with 12 samples.

Results

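A set of 9 enzymes writes, maintains and removes methylation of cytosine in CpG dinucleotides, and its mRNA levels were followed in LNCaP cells, an androgen-sensitive prostate cancer line from a lymph node metastasis, after depletion of BRG1, the SWI/SNF chromatin remodelling ATPase encoded by SMARCA4. The set was chosen by symbol and not by level: DNMT1, DNMT3A, DNMT3B, UHRF1, TET1, TET2, TET3, TDG and MBD4. Of these 9 genes, 8 were matched to a row of the 63568 genes listed, and UHRF1 was not matched and is not analysed here. RNA was taken 72 h after transfection with a non-targeting siRNA pool (si-NT, n = 2) or with 1 of 2 single SMARCA4 siRNAs (BRG1 depleted, n = 4, 2 libraries for each siRNA). At 72 h cells were also split and transfected again, and RNA was taken at 144 h from the same kinds of culture (si-NT, n = 2, and BRG1 depleted, n = 4). The SMARCA4 siRNAs are named here 2 and 3, as they are numbered in the deposited table. The sample labels number them 1 and 2, 1 library at 72 h carries both numbers in its labels, and neither siRNA of the table could be matched to a label number, which does not touch the groups. All 12 libraries come from 1 cell line and every culture was transfected, the controls included. The sources do not say whether replicates were separate cultures, so p-values measure only the spread between these libraries. Levels are in TPM, a transcript abundance that is corrected for gene length and sums to the same total in every library. The read depth is unknown.

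DNMT1 copies methylation to the daughter strand behind the replication fork, and UHRF1 brings it to hemimethylated sites. DNMT3A and DNMT3B set methylation on unmethylated DNA. The TET enzymes oxidise 5-methylcytosine stepwise to 5-hydroxymethylcytosine, 5-formylcytosine and 5-carboxylcytosine. TDG excises the last 2 of these as well as thymine mispaired with guanine, MBD4 also removes thymine or uracil opposite guanine at CpG sites, and base excision repair then restores cytosine.

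The knockdown was seen in every library. At 72 h SMARCA4 lay at 97.0 and 73.4 TPM with si-NT and at 17.5 to 21.7 TPM after BRG1 depletion. At 144 h the values were 94.5 and 106.6 TPM with si-NT and 11.4 to 17.4 TPM after depletion. All 10 luminal prostate markers examined were expressed in every library, among them KRT8 at 303.4 to 500.3 TPM. None of the 4 basal and 5 leukocyte markers, nor any of the 3 endothelial markers matched, reached 1 TPM in any library, and of the 5 stromal markers COL1A1 alone did, at 3.10 to 9.11 TPM. From 14706 to 15355 genes reached 1 TPM in a library. The second si-NT library at 72 h stood apart from the first in genes of the cell cycle, as described beside DNMT1.

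The enzymes were expressed over a wide range. Averaged over the 12 libraries, DNMT1 had the highest level, at 58.3 TPM, and TDG followed at 46.3 TPM. DNMT1 was above TDG in 11 of 12 libraries, the exception being the second si-NT library at 72 h. MBD4 stood at 22.2 TPM and was below TDG in all 12 libraries. DNMT3A averaged 14.5 TPM and was below MBD4 in 11 of 12 libraries. TET3 averaged 10.3 TPM and was below DNMT3A in all 12. TET2 and DNMT3B could not be ordered, with means of 4.88 and 4.64 TPM and TET2 above DNMT3B in 6 of 12 libraries. TET1 was at 0.28 to 0.94 TPM, below DNMT3B in all 12 libraries and below 1 TPM in each. The level of the maintenance enzyme DNMT1 was 2.61 to 7.17 times that of the de novo enzyme DNMT3A within a library, and TET3 was the most abundant TET transcript, making up 58.6% to 72.0% of the summed TET level across the libraries.

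**Figure D1:**
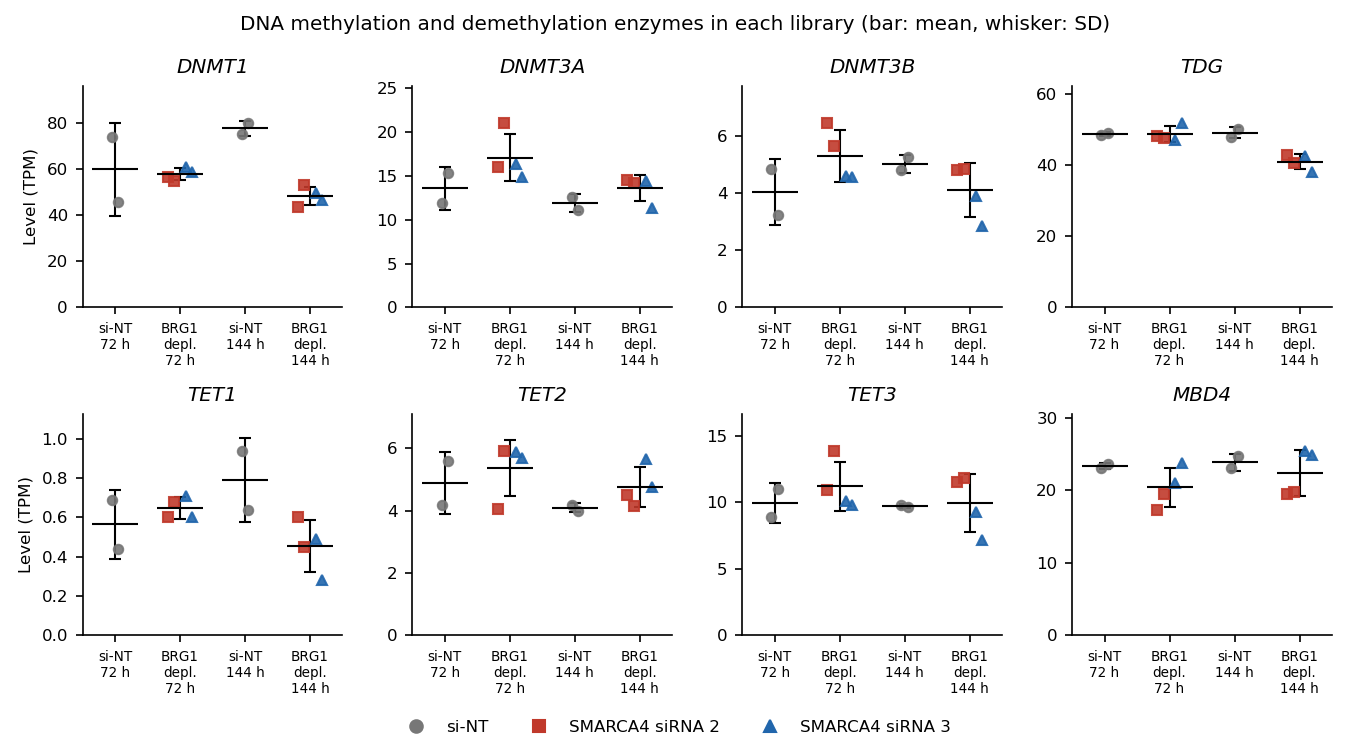
Level in TPM (vertical axis, from 0, a separate scale for each gene) of the 8 enzymes in each of the 12 libraries by group; grey circles are si-NT, red squares SMARCA4 siRNA 2 and blue triangles siRNA 3, with bars for the group mean and whiskers for the SD. DNMT1 and TDG in BRG1 depleted cells at 144 h lie below both si-NT libraries of that time point, and MBD4 is lower with siRNA 2 than with siRNA 3.

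Of the 8 enzymes, 7 passed the filter of at least 1 TPM in at least 2 libraries and were tested with limma on log2(TPM + 1) among 16337 genes, with Benjamini-Hochberg adjustment over all of them and a call at an adjusted p under 0.05. Fold changes below are on that scale and understate the change of genes of low level. At 72 h none of the 7 enzymes was called lower, against 0.557% of all genes, and none was called higher, against 1.13%. By limma, with both siRNAs together, 0 of the 7 also had an unadjusted p under 0.05 at 72 h, where 14.3% of all genes did. With siRNA 2 alone at 72 h, 3 enzymes did by limma, and with siRNA 3 alone 0 did. The log2 fold changes of these 3 were -0.33 for MBD4, 0.42 for DNMT3A and 0.50 for DNMT3B. None was called, and the share of all genes for either siRNA alone at 72 h is not given here. At 144 h DNMT1 and TDG fell, 2 of 7, where 10.8% of all genes were called lower. No enzyme was called higher at 144 h, against 13.6% of all genes, and 0 had an unadjusted p under 0.05 in that direction. The median log2 fold change of the 7 enzymes was 0.11 at 72 h and -0.10 at 144 h, beside 0.06 and 0.03 for all genes tested.

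**Figure D2:**
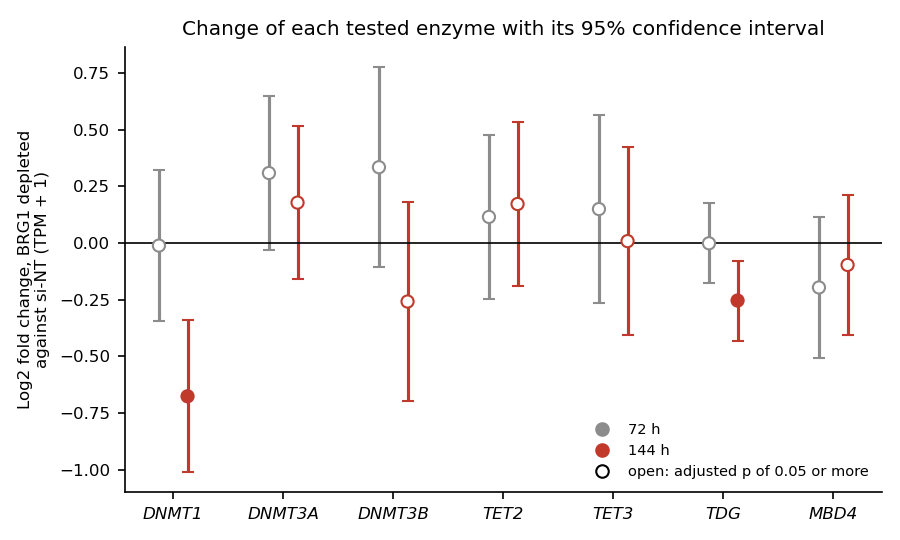
Log2 fold change of TPM + 1 between BRG1 depleted and si-NT cells (vertical axis) for the 7 tested enzymes at 72 h (grey) and 144 h (red), with 95% confidence intervals; filled points have an adjusted p under 0.05. Only DNMT1 and TDG at 144 h are filled, and the DNMT1 interval runs from -1.01 to -0.34.

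DNMT1 (ENSG00000130816.10) lies on the minus strand of chromosome 19 (GRCh37, 10244018 to 10341962). At 72 h its level was 74.1 and 45.7 TPM in si-NT, 56.7 and 54.9 TPM with siRNA 2, and 60.9 and 58.6 TPM with siRNA 3. Every BRG1 depleted library lay between the 2 si-NT libraries. The fold change at 72 h was -0.01 on the log2 scale (SE 0.15, limma adjusted p = 0.982). At 144 h the level was 75.3 and 80.0 TPM in si-NT, 43.6 and 53.2 TPM with siRNA 2, and 49.8 and 46.6 TPM with siRNA 3. The si-NT libraries were thus above each of the 4 BRG1 depleted ones. The mean fell from 77.6 ± 3.31 (SD, n = 2) to 48.3 ± 4.11 TPM (SD, n = 4), a difference of -37.8%, or -0.68 on the log2 scale (SE 0.15, limma adjusted p = 0.00895).

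DNMT1 was called lower with each siRNA at 144 h. The siRNAs were separate groups of 1 fit, and both were set against the same 2 si-NT libraries. In that fit DNMT1 had a log2 fold change of -0.68 with siRNA 2 (limma adjusted p = 0.0333, where 7.67% of all genes were called lower). With siRNA 3 it was -0.68 (limma adjusted p = 0.0342, where 10.4% of all genes were called lower). The difference of siRNA 3 minus siRNA 2 at 144 h was -0.00 (95% confidence interval -0.43 to 0.42). The call rested on both si-NT libraries of 144 h: without the first, the fold change was -0.72 (limma adjusted p = 0.0503), and without the second -0.63 (limma adjusted p = 0.0927). The log2 fold change at 144 h minus that at 72 h was -0.66 (SE 0.22), and this difference did not pass the test over all genes (limma adjusted p = 0.311, unadjusted p = 0.0101). It was -1.01 (limma adjusted p = 0.0829) without the first si-NT library of 72 h and -0.32 (limma adjusted p = 0.837) without the second. Over all genes 0.0184% differed in this way between the time points. The log2 difference of 144 h minus 72 h was 0.41 in si-NT cells (SE 0.18, limma adjusted p = 0.974) and -0.26 in BRG1 depleted cells (SE 0.12, limma adjusted p = 0.257), and neither was called. The former was 0.75 without the first si-NT library of 72 h and 0.07 without the second.

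DNMT1 was high and low in much the same libraries as genes of DNA replication and division. The summed level of 20 S phase genes, among them the licensing factors CDC6 and CDT1 and the helicase subunit MCM2, was 1446 and 1603 TPM in si-NT at 144 h and 686.0 to 1001 TPM in BRG1 depleted cells, and 17 of these 20 genes were called lower, with none higher and all 20 fold changes negative. The sum of 12 G2/M genes, among them the cyclin CCNB2, the kinetochore protein CENPF and the topoisomerase TOP2A, was 1388 and 1619 TPM in si-NT and 807.4 to 1099 TPM in BRG1 depleted cells at 144 h, and 11 of 12 were called lower. Among all genes, 10.8% were called lower and 13.6% higher at that time point. Without the first or the second si-NT library of 144 h, 7 or 3 S phase genes and 5 or 3 G2/M genes were called lower. At 72 h the si-NT library with less DNMT1 (45.7 TPM) had an S phase sum of 871.0 TPM and a G2/M sum of 826.3 TPM, against 1403 and 1417 TPM in the other. The ratio of DNMT1 to the S phase sum, in percent, was 5.21% and 4.99% in si-NT at 144 h and 5.31% to 6.80% in BRG1 depleted cells, where it was slightly higher in each library, whereas DNMT1 itself was lower in each. At 72 h this ratio was 5.25% and 5.28% in si-NT and 5.50% to 6.82% in BRG1 depleted cells. In bulk RNA, fewer cells in S phase and less DNMT1 mRNA per cell cannot be told apart, and the part of cell cycle genes in the DNMT1 result was not tested.

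**Figure D3:**
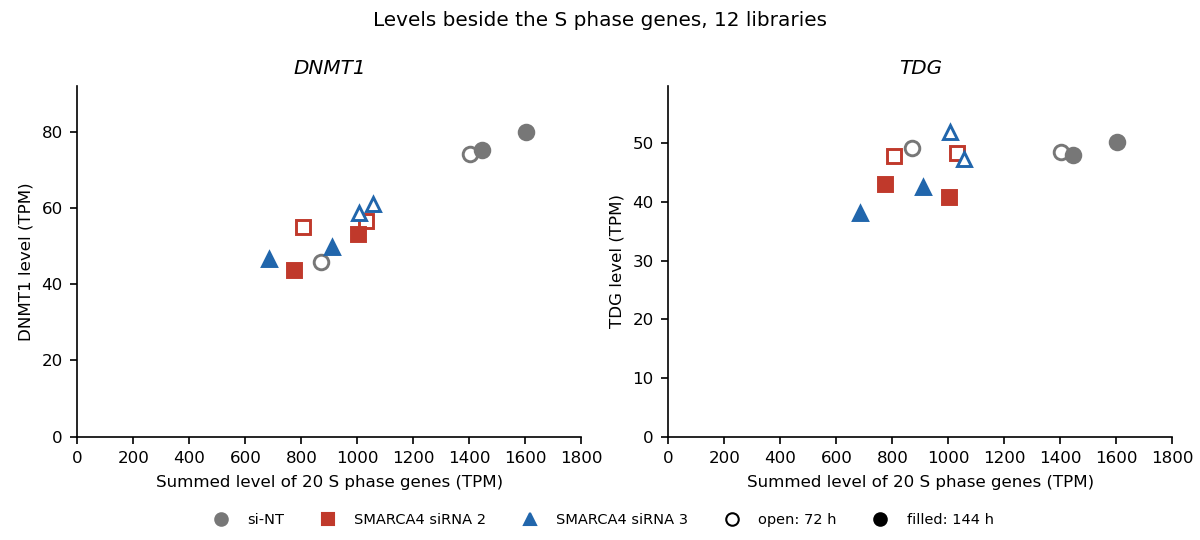
Level of DNMT1 (left) and TDG (right) in TPM against the summed TPM of 20 S phase genes in the 12 libraries; open symbols are 72 h, filled symbols 144 h, grey si-NT, red siRNA 2 and blue siRNA 3. DNMT1 is high in the 3 libraries with S phase sums of 1403 to 1603 TPM and at most 60.9 TPM in the others. TDG is lower in the BRG1 depleted libraries of 144 h. Their S phase sums of 686.0 to 1001 TPM overlap only in part those of 72 h, which are 805.3 TPM or more.

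TDG (ENSG00000139372.10) lies on the plus strand of chromosome 12 (GRCh37, 104359600 to 104382652). At 72 h it stood at 48.5 and 49.1 TPM in si-NT, 48.2 and 47.8 TPM with siRNA 2, and 47.2 and 51.9 TPM with siRNA 3. The groups overlapped, with a log2 fold change of -0.00 (95% confidence interval -0.18 to 0.17, limma adjusted p = 0.996). At 144 h it stood at 48.0 and 50.2 TPM in si-NT, 43.0 and 40.8 TPM with siRNA 2, and 42.5 and 38.0 TPM with siRNA 3. These 4 BRG1 depleted libraries were below every other library of the series. The fall from 49.1 ± 1.56 (SD, n = 2) to 41.1 ± 2.23 TPM (SD, n = 4) was -16.4%, or -0.25 on the log2 scale (SE 0.081, limma adjusted p = 0.0395). The adjusted p was close to the threshold. With the replicate number as a block the adjusted p was 0.0578, and taken separately siRNA 2 gave -0.23 (limma adjusted p = 0.111) and siRNA 3 -0.28 (limma adjusted p = 0.0585). Leaving out any of 6 of the 12 libraries also ended the call (both si-NT libraries of 144 h, the first siRNA 2 and the first siRNA 3 library of 72 h, and the second siRNA 2 and the second siRNA 3 library of 144 h), with adjusted p-values over all 12 omissions of 0.0410 to 0.256. The difference between the time points was -0.25 (limma adjusted p = 0.418).

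Because these 2 enzymes fell, the 250 bases upstream of their RefSeq start sites (GRCh38.p14) are shown 5′ to 3′ on the strand of the gene, DNMT1 from chr19:10194954-10195203 on the minus strand and TDG from chr12:103965622-103965871 on the plus strand. Capitals mark matches on either strand to any of 4 motifs searched: E2F sites (TTTGGCGC, TTTCGCGC or TTTCCCGC), the CHR element (TTTGAA), the CCAAT box (CCAAT) and the GC box (GGGCGG).
DNMT1: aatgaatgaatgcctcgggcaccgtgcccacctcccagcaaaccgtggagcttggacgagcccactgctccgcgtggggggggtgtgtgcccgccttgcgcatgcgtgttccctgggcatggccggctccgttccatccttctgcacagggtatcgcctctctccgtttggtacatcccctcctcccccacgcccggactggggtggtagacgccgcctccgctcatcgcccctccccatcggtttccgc
TDG: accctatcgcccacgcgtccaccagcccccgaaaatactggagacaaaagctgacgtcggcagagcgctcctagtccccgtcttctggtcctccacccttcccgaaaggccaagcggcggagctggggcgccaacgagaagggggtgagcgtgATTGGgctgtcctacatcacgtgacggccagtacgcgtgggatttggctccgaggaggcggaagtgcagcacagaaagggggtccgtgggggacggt
The DNMT1 window held no match to any of the 4, and the TDG window held 1 CCAAT box, read on the opposite strand, at -97 to -93 from the start site. No window of the 8 enzymes, 17 in all, held one of the E2F sites, which occur in 2.32% of all 35116 upstream windows and in 8 of 22 windows of 16 S phase genes. CCAAT boxes were in 6 of the 17 windows (35.3%, against 32.0% of all windows), GC boxes in 8 (47.1%, against 42.6%) and the CHR element in 1 (5.88%, against 13.3%). DNMT3A and TET1 have several windows each, some of which overlap, so the same match can count more than once. The ratio of observed to expected CpG was 0.77 upstream of DNMT1 and 0.86 upstream of TDG, beside a median of 0.56 over all windows. A match is a run of letters and not a site of binding, and a window without one says nothing of a factor.

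Neither de novo methyltransferase was called at either time point. DNMT3A (chromosome 2, minus strand, 25450724 to 25565459) was at 11.9 and 15.4 TPM in si-NT at 72 h, 16.1 and 21.0 TPM with siRNA 2, and 16.3 and 14.9 TPM with siRNA 3. At 144 h these values were 12.6 and 11.2 TPM in si-NT, 14.5 and 14.2 TPM with siRNA 2, and 14.4 and 11.4 TPM with siRNA 3. Its groups overlapped at both time points, with log2 fold changes of 0.31 at 72 h (95% confidence interval -0.03 to 0.65, limma adjusted p = 0.401) and 0.18 at 144 h (-0.16 to 0.52, limma adjusted p = 0.440). DNMT3B (chromosome 20, plus strand, 31350191 to 31397165) lay at 2.85 to 6.45 TPM in all libraries. Its log2 fold change was 0.33 at 72 h (95% confidence interval -0.11 to 0.77, limma adjusted p = 0.497) and -0.26 at 144 h (-0.70 to 0.18, limma adjusted p = 0.386). At 144 h its level was 4.79 and 5.25 TPM in si-NT, 4.79 and 4.85 TPM with siRNA 2, and 3.90 and 2.85 TPM with siRNA 3.

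The summed level of the 3 methyltransferases was 92.7 and 96.4 TPM in si-NT at 144 h and 60.8 to 72.2 TPM in BRG1 depleted cells. DNMT1 made up 81.2% and 83.0% of that sum in si-NT and 69.3% to 76.6% in BRG1 depleted cells at 144 h. At 72 h its share was 81.6% and 71.1% in si-NT and 67.3% to 75.0% in BRG1 depleted cells. The groups were apart at 144 h and overlapped at 72 h, and the first si-NT library of 72 h was as rich in DNMT1 as those of 144 h.

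None of the TET genes was called. TET1 (chromosome 10, plus strand, 70320094 to 70454244) did not pass the filter. At 144 h TET1 was at 0.94 and 0.64 TPM in si-NT and at 0.60, 0.45, 0.49 and 0.28 TPM in BRG1 depleted cells, all below 1 TPM. At 72 h its si-NT libraries stood at 0.69 and 0.44 TPM. In the fit without a filter, over 33048 genes, its log2 fold change was -0.30 at 144 h (limma adjusted p = 0.134) and 0.08 at 72 h (limma adjusted p = 0.885). TET2 (chromosome 4, plus strand, 106067032 to 106200973) was at 5.92 TPM or less in all libraries and at 4.19 TPM or less in both si-NT libraries of 144 h, with log2 fold changes of 0.11 at 72 h (limma adjusted p = 0.819) and 0.17 at 144 h (95% confidence interval -0.19 to 0.53, limma adjusted p = 0.490). TET3 (chromosome 2, plus strand, 74212037 to 74335303) lay between 7.16 and 13.9 TPM, with 0.15 at 72 h (limma adjusted p = 0.790) and 0.01 at 144 h (95% confidence interval -0.41 to 0.42, limma adjusted p = 0.981).

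Behind the small mean change of TET3 the siRNAs lay apart. At 144 h TET3 was 11.5 and 11.8 TPM with siRNA 2, above the si-NT libraries at 9.83 and 9.62 TPM, and 9.30 and 7.16 TPM with siRNA 3, below them. The difference of siRNA 3 minus siRNA 2 was -0.47 (SE 0.16), which did not pass the test over all genes (limma adjusted p = 0.266). MBD4 (chromosome 3, minus strand, 129149790 to 129159022) split the other way. At 72 h it was 23.1 and 23.7 TPM in si-NT, 17.3 and 19.5 TPM with siRNA 2, and 21.0 and 23.8 TPM with siRNA 3. At 144 h MBD4 stood at 23.1 and 24.7 TPM in si-NT, 19.5 and 19.8 TPM with siRNA 2, and 25.5 and 24.9 TPM with siRNA 3. At each time point both siRNA 2 libraries had less MBD4 than either si-NT library, which did not hold for both siRNA 3 libraries. The difference of siRNA 3 minus siRNA 2 was 0.27 at 72 h (limma adjusted p = 0.530) and 0.34 at 144 h (SE 0.10, limma adjusted p = 0.219). Against si-NT, MBD4 with both siRNAs together had log2 fold changes of -0.20 at 72 h (limma adjusted p = 0.583) and -0.10 at 144 h (95% confidence interval -0.41 to 0.21, limma adjusted p = 0.662). None of the 7 enzymes differed between the siRNAs at an adjusted p under 0.05, where 0.141% of all genes did at 72 h and 0.331% at 144 h. By limma, 1 enzyme at 72 h and 3 at 144 h had an unadjusted p under 0.05 in that comparison, as did 8.33% and 13.3% of all genes. The ratio of TDG to MBD4 was smallest with siRNA 3 at 144 h, at 1.67 and 1.53, against 2.03 to 2.79 in the remaining libraries.

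Repeat transfection and longer culture alone were read from the si-NT libraries. None of the 7 enzymes was called different between si-NT at 144 h and at 72 h by limma, and 0% of all genes were called. By limma, 4.11% of all genes and 1 enzyme, DNMT1, had an unadjusted p under 0.05. TDG in si-NT was 48.5 and 49.1 TPM at 72 h and 48.0 and 50.2 TPM at 144 h, a log2 difference of 0.01 (95% confidence interval -0.19 to 0.21). In BRG1 depleted cells the log2 difference of 144 h minus 72 h was -0.24 (limma adjusted p = 0.0616), which was not called.

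Profiles across the 12 libraries were compared by the root mean square distance between log2(TPM + 1) values centred on each gene's mean. The nearest genes were picked from these same libraries, so fold changes like those of the enzyme follow from the choice. The genes nearest to DNMT1 were CSE1L, a nuclear export receptor that recycles importin alpha, at 0.065, and EZH2, the methyltransferase of Polycomb repressive complex 2, at 0.074, where the median over all genes was 0.353. Both were lower in BRG1 depleted cells at 144 h, by log2 fold changes of -0.72 for CSE1L and -0.71 for EZH2, and neither was called without the second si-NT library of 144 h. The genes nearest to TDG were HBS1L, a factor in ribosome rescue, at 0.042, and METAP2, a methionine aminopeptidase, at 0.048, where the median was 0.249. Their log2 fold changes at 144 h were -0.18 and -0.15. HBS1L was called in 1 of 21 alternative settings of the fit and METAP2 in 0. Among the 21 pairs of tested enzymes, DNMT3A and TET3 were the nearest, at 0.145, and DNMT1 and DNMT3A the farthest, at 0.420.

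Other genes of the same pathways were read from lists. Of 9 tested partners of maintenance methylation, 5 were called lower at 144 h and none higher, beside 10.8% and 13.6% of all genes. All 9 fold changes were negative, with a median of -0.80, beside 0.03 for all genes. The remodeller HELLS fell from 17.6 ± 2.99 (SD, n = 2) to 8.29 ± 2.11 TPM (SD, n = 4), with a fold change of -1.02 on the log2 scale (limma adjusted p = 0.0115). PCLAF, which binds PCNA, changed by -0.97 (limma adjusted p = 0.0031), and PCNA, the sliding clamp that DNMT1 binds at the fork, changed from 208.9 to 113.7 TPM, by -0.88 (limma adjusted p = 0.0133). PCNA is also counted among the S phase genes. Without the first or the second si-NT library of 144 h, 3 or 1 of these 9 partners were called lower, HELLS and PCLAF being lost without the second and PCNA without either. At 72 h none of the 9 was called, and 0 had an unadjusted p under 0.05 by limma. DNMT3L, the cofactor of de novo methylation, was listed at 0 TPM in every library.

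Proteins that read methylation were also listed, and their counts at 144 h stand beside 10.8% of all genes called lower and 13.6% called higher. Of 7 methyl-CpG readers, ZBTB4 alone was called at 144 h, at 9.18 TPM in si-NT and 13.8 TPM in BRG1 depleted cells (log2 fold change 0.54, limma adjusted p = 0.0207), and the call was lost without either si-NT library of 144 h. Of 7 tested CXXC domain proteins, which bind unmethylated CpG or descend from such proteins, CXXC5 rose from 37.8 to 69.2 TPM (0.85, limma adjusted p = 0.00129) and KDM2B fell from 7.37 to 4.54 TPM (-0.61, limma adjusted p = 0.0179). KDM2B was not called without either si-NT library of 144 h.

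A list of 15 genes around base excision repair held other glycosylases, genes of later steps, and also GADD45A, GADD45B and GADD45G. Not all of them therefore act after TDG and MBD4. Of the 15 genes, 5 were called lower at 144 h and none higher, where 10.8% of all genes were called lower and 13.6% higher. By limma, 1 of the 15, GADD45A (log2 fold change 0.48), had an unadjusted p under 0.05 in the higher direction. The list median was -0.21. Of the 5 called genes, those with the largest change were the glycosylases NEIL3 (8.30 to 3.74 TPM, log2 fold change -0.99, limma adjusted p = 0.0233), UNG (46.6 to 31.3 TPM, -0.56, limma adjusted p = 0.00767) and NEIL2 (42.7 to 29.5 TPM, -0.52, limma adjusted p = 0.0309). The others were APEX1 (260.8 to 210.4 TPM, -0.31, limma adjusted p = 0.0087) and POLB (32.5 to 26.6 TPM, -0.28, limma adjusted p = 0.0319). With either si-NT library of 144 h left out, 0 of the 15 genes were called lower.

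Transcripts of enzymes that supply the substrates were called in both directions, beside 10.8% of all genes called lower and 13.6% higher. Metabolites were not measured. Of 11 genes for 2-oxoglutarate and TET cofactor supply, 3 were called lower and 2 higher at 144 h. IDH1, the cytosolic dehydrogenase that makes 2-oxoglutarate, rose from 240.9 ± 30.4 (SD, n = 2) to 405.1 ± 9.93 TPM (SD, n = 4), by 0.75 (limma adjusted p = 0.000717). SDHB, a subunit of succinate dehydrogenase, fell from 206.9 to 156.9 TPM (log2 fold change -0.40, limma adjusted p = 0.0113). It was not called without the second si-NT library of 144 h, when 0 of the 11 genes were called lower. A single gene of the list was called higher without either si-NT library of 144 h. Of 15 tested genes of the S-adenosylmethionine cycle, which supplies the methyl group, 6 were called lower and 2 higher, or 3 lower without the second si-NT library of 144 h and 1 higher without either. SHMT2, the mitochondrial serine hydroxymethyltransferase, went from 325.2 to 157.2 TPM at 144 h (log2 fold change -1.05, limma adjusted p = 0.000539) and was the only gene of these lists called at 72 h (-0.75, limma adjusted p = 0.0262), a call that was lost without the second si-NT library, either siRNA 2 library or the second siRNA 3 library of 72 h, with only the 6 libraries of the time point (adjusted p = 0.135) and with ERCC scaling (adjusted p = 0.625). MTAP, which salvages methionine, changed by -0.91 (limma adjusted p = 0.00124). GNMT, which uses up S-adenosylmethionine by methylating glycine, rose from 11.5 ± 0.919 (SD, n = 2) to 36.1 ± 2.90 TPM (SD, n = 4), by 1.57 (limma adjusted p = 0.000291), and at 72 h it lay at 11.8 TPM in si-NT and 13.6 TPM in BRG1 depleted cells.

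**Figure D4:**
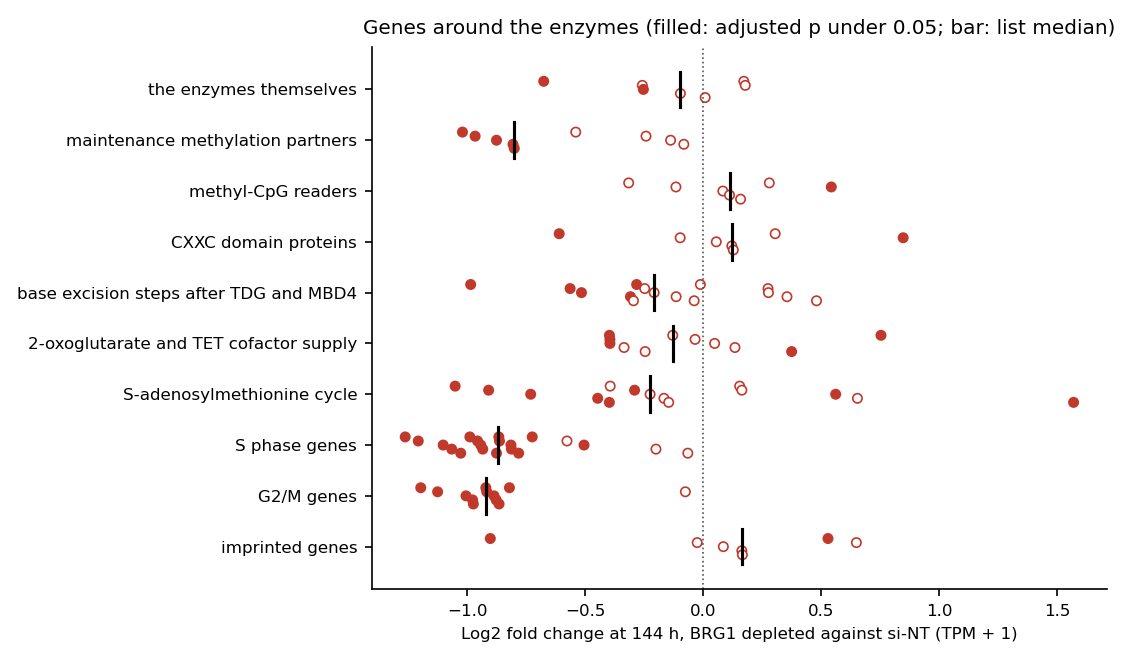
Log2 fold change at 144 h (horizontal axis) of every tested gene in 10 lists, 1 point a gene, filled where the adjusted p was under 0.05, with a bar at the median of each list. Points of the maintenance partners, S phase and G2/M genes lie left of 0, with medians of -0.80, -0.87 and -0.92, while the enzymes themselves have a median of -0.10.

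Genes listed as targets of silencing by methylation differed in level. Of 12 germline genes kept silent by promoter methylation in somatic cells, 2 passed the filter and neither was called at either time point, with 0 at an unadjusted p under 0.05 by limma. Among them, MAGEA1, singled out after its values were seen, was at 5.32 to 9.99 TPM in 11 libraries and listed at 0 in the second siRNA 2 library of 144 h. GSTP1, whose promoter is methylated in most prostate cancers, stayed at 0.57 TPM or less in every library, and PTGS2 and CCND2 at 0.01 and 0.11 TPM or less. RASSF1, from the same list, was at 21.8 to 34.4 TPM in all libraries and was not called at 144 h (log2 fold change 0.09, limma adjusted p = 0.694). Levels are given per gene, so transcripts of a methylated promoter cannot be told apart from those of another promoter. RARB, also on the list of 5 genes methylated in prostate cancer, was at 2.12 and 2.32 TPM in si-NT at 144 h and at 3.76 to 4.41 TPM in BRG1 depleted cells (log2 fold change 0.66, limma adjusted p = 0.00417), but at 72 h the si-NT libraries stood at 3.62 and 3.30 TPM, within or beside the BRG1 depleted range of 3.32 to 4.30 TPM. Of 7 tested imprinted genes, H19 was called lower at 144 h, from 1.60 to 0.39 TPM (-0.90, limma adjusted p = 0.0140), and SNRPN higher, from 48.2 to 70.0 TPM (0.53, limma adjusted p = 0.00202). Among all genes, 10.8% were called lower and 13.6% higher at 144 h. H19 was not called without either si-NT library of 144 h, and SNRPN shares its transcript with SNURF, so its reads may be divided between them. Methylation itself was not measured in these libraries.

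The size of the changes moved with the scaling. Levels were also scaled to the ERCC spike-ins added to the RNA. The median of all genes was then -0.31 at 144 h and -0.11 at 72 h. At 144 h 613 genes were called lower and 139 higher, instead of 1761 lower and 2222 higher. The share of higher genes among those called was 18.5% instead of 55.8%. The shares of all genes given above, such as 10.8% lower and 13.6% higher, thus depend on the scaling. On that scale the log2 fold change of DNMT1 at 144 h was -1.07 (limma adjusted p = 0.0582), or -0.76 relative to the median. That of TDG was -0.65 (limma adjusted p = 0.211), or -0.34 relative to the median. Neither was called, although both falls were larger than the -0.68 and -0.25 without this scaling. Spike-ins made up 0.80% and 1.34% of the TPM in the si-NT libraries of 144 h. In the BRG1 depleted libraries of 144 h they made up 1.04% to 1.97%. Under ERCC scaling 11 of 20 S phase genes and 9 of 12 G2/M genes were still called lower, and ZBTB4, CXXC5, IDH1, SNRPN and RARB were no longer called higher. UNG, NEIL2, KDM2B, SDHB, CSE1L and EZH2 were no longer called lower.

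Reads near the enzymes can be shared with overlapping genes. DNMT1 exons overlap those of S1PR2 on the same strand by 83 bases, and S1PR2 was at 0.58 to 2.12 TPM. TET3 shares 390 exon bases with a lncRNA on its strand that was at 0.75 to 4.79 TPM, which makes the lower TET3 values uncertain. MBD4 shares 279 exon bases with IFT122 on the opposite strand, at 7.67 to 15.8 TPM. TDG shares 168 exon bases with a lncRNA on its strand (ENSG00000288744), which was not analysed here. The TDG pseudogene TDGP1 was at 0.41 TPM or less, and the pseudogenes of DNMT3A and TET1 were listed at 0.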

How the data were processed

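RNA-seq covered LNCaP cells given si-NT or 1 of 2 SMARCA4 siRNAs, at 72 h and 144 h, in 12 libraries. The authors trimmed reads with Trim Galore 0.11.2, aligned them to hg19 (GRCh37) with STAR 2.4.0j, counted genes with featureCounts, and deposited TPM on GENCODE genes for each library, with ERCC spike-ins. The paper states that counts were normalised with the spike-ins, and it reports more down-regulated than up-regulated genes at 144 h. Shares of all genes given here come from TPM without that step. TPM keeps no depth, so no count model or counting error is given. Symbols come from a reference table that paired 87.6% of the gene identifiers, and GRCh37 coordinates from GENCODE release 44 lifted to that build. The members and gene lists were chosen with earlier results of these data known.

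TPM was tested as log2(TPM + 1) with limma 3.58.1 (lmFit, eBayes with trend, R 4.3.3) over 16337 genes that reached 1 TPM in 2 or more libraries, in 4 groups, or 6 groups for the siRNAs. The fit was tested on simulated data. Genes named beyond the enzymes are SMARCA4, up to 3 called genes of each list with the largest fold change at 144 h, and the 2 nearest profiles of each called enzyme. Some of these genes are not reported here. Alternatives were a pseudocount of 0.1, no filter, a mean of at least 5 TPM, median-of-ratios, ERCC scaling, a replicate block, 6 libraries a time point, 6 groups, combined si-NT, a log2 fold change limit of 1.5, and leaving out each of the 12 libraries. The alternatives for genes other than the enzymes were added after seeing the data. Figures were drawn with matplotlib 3.10.9.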

Additional observations from a re-analysis of the deposited data

Results flagged for a closer look

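In the 4 BRG1 depleted libraries of 144 h, DNMT3A was at 11.4 TPM in the second siRNA 3 library and at 14.2 to 14.5 TPM in the others, a gap of 0.902 of the group's whole range. In the 4 BRG1 depleted libraries of 72 h, TET2 was at 4.04 TPM in the first siRNA 2 library and at 5.67 to 5.92 TPM in the others, a gap of 0.867 of the range. Each is the lowest library of its group, and each gap is wider than Dixon's limit for 4 libraries, which chance exceeds in about 1 in 20 groups. With 8 enzymes, 16 groups of 4 libraries were screened and 2 gaps found, so about 1 would arise by chance.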

How the results depend on the processing

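With 2 si-NT libraries at each time point and an unknown depth, small changes such as that of TDG sit at the limit of what these libraries can show. The count of enzymes called lower at 144 h was 2, and it was 0 with ERCC scaling, 0 with a log2 fold change limit of 1.5, 1 with only the 6 libraries of the time point, and 0 to 2 when single libraries were left out (0 without either si-NT library of 144 h). It was 1 with the replicate number as a block (replicate block), where DNMT1 was called (adjusted p = 0.0123) and TDG was not (adjusted p = 0.0578). The block changed no other count of enzymes. Deviations of the first replicates correlated across genes between the 6 groups of libraries at -0.23 to 0.30 over 15 pairs, so the numbers were not shown to pair the libraries. DNMT1 was called at 144 h in 18 of 21 alternatives, with log2 fold changes of -1.07 to -0.47 and adjusted p of 0.00099 to 0.0927, and TDG in 12 of 21, with -0.65 to -0.22 and adjusted p of 0.0096 to 0.256. TDG had an adjusted p of 0.0801 with the 6 libraries alone.

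Other enzymes changed sign only where they were not called. ERCC scaling gave -0.20 for DNMT3A at 144 h, -0.048 for TET2 at 72 h, -0.16 for TET2 at 144 h, -0.031 for TET3 at 72 h and -0.35 for TET3 at 144 h. TET3 at 144 h was -0.024 with median-of-ratios and -0.00536 with si-NT combined. Leaving out single libraries gave -0.35 to 0.33 for DNMT1 at 72 h, -0.059 to 0.29 for TET2 at 72 h, -0.076 to 0.14 for TET3 at 144 h and -0.032 to 0.013 for TDG at 72 h. The cause was not tested. Of the values of enzymes under alternatives, 261 kept direction and side of the threshold, 17 changed sign and 12 lost the call.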
